A study of Mus musculus with 7 samples.

Results

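The 41 genes described here encode general factors of DNA repair and damage signaling, and they were listed by function, with earlier results of these data known. They hold 8 subunits of the Fanconi anemia core complex, the *Fancd2* and *Fanci* pair, *Brca1* with 3 of its partners, 8 strand exchange factors (5 paralogs of the RAD51B and XRCC2 family, *Rad52* and 2 RAD54 translocases), 6 genes for end resection and for BLM, 9 genes of ATM and ATR signaling, and 4 junction nucleases or their scaffold. Factors that act only in meiosis were not part of the list. The tables held 21928 genes, of which 13630 were tested because their TPM (a level per transcript length, scaled to the total of the library) was at least 1 in at least 3 of the 7 libraries. All 41 genes passed this filter.

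RNA was sequenced in bulk from synchronized testes of 4 wild-type pups and 3 *Meioc*-null pups of the strain C57BL/6N, the null ones carrying the allele *Meioc* tm1.1Dpc. Both groups received WIN 18,446, which blocks the synthesis of retinoic acid, daily on P2 to P8 (0.1 mg/g), then retinoic acid on P9 (0.0125 mg/g), and testes enriched for preleptotene cells were taken 6.75 days later. Preleptotene spermatocytes are the germ cells that carry out the last DNA replication before meiosis, and MEIOC is a germ cell protein that acts with RNA-binding partners at this step. Each library was made from 1.5 whole testes of 1 pup, somatic cells included. In such bulk samples, fewer cells of a type and less RNA per cell cannot be told apart.

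The libraries held between 12537852 and 20552702 estimated counts. *Meioc* itself was counted at 468, 660.2, 664 and 720.0 CPM in wild-type replicates 1 to 4 and at 400.3, 299.6 and 413 CPM in *Meioc*-null replicates 1 to 3. Transcripts of the gene were thus still counted in the null libraries. CPM are counts scaled to the depth of the library after TMM normalization, for every gene value here. Wild-type replicate 1 lay nearer the null libraries than the rest of its group did. Its log2 CPM over all tested genes correlated with null replicate 1 (Pearson's r = 0.985) as with the other wild-type libraries (0.981 to 0.986). Null replicate 1 likewise correlated with wild-type replicate 1 as with null replicates 2 and 3 (0.982 and 0.987). Wild-type replicate 1 was the lowest wild-type library for 78.8% of the 1059 genes called higher in wild type. Among the repair genes called higher it was the lowest wild-type library for 12 of 13, so counts without it are given below.

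The Fanconi anemia pathway removes crosslinks between DNA strands: the core complex attaches ubiquitin to FANCD2 and FANCI, which then bring in nucleases and recombination factors. BRCA1 and its partners, the strand exchange paralogs and the RAD54 translocases help a broken DNA end to find and invade a matching strand. ATM answers double-strand breaks and ATR answers single-stranded DNA at stalled forks, and both pass the signal to checkpoint kinases. In spermatocytes the same factors later serve the programmed breaks of meiosis, and ATR, TOPBP1, MDC1 and BRCA1 take part in silencing the sex chromosomes.

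The promoters of *Brip1*, *Atr*, *Mdc1* and *Chek1* are shown because these 4 genes had the largest fold changes of the called genes. Each window runs from 250 bases before to 50 bases after the RefSeq start site (GRCm38.p6), 5′ to 3′ on the strand of the gene. Capitals mark words searched on both strands: the E2F words TTTCCCGC, TTTCGCGC, TTTGCCGC, TTTGGCGC and GGCGGGAA, the CCAAT box of NF-Y, the GC box GGGCGG, and the STRA8 word CNCCTCAG.
Brip1 (minus strand, chr11:86201144-86201443): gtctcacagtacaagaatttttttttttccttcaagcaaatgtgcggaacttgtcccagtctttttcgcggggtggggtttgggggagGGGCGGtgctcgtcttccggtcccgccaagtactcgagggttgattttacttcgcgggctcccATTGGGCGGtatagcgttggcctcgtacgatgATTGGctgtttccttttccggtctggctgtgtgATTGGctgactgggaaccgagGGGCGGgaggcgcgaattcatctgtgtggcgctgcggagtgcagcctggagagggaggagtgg
Atr (plus strand, chr9:95857347-95857646): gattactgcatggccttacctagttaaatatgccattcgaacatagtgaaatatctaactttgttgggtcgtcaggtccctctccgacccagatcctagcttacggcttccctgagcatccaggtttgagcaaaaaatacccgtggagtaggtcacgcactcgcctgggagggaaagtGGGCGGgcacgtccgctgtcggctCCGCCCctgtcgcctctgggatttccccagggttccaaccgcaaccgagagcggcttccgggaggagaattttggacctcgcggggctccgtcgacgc
Mdc1 (plus strand, chr17:35841248-35841547): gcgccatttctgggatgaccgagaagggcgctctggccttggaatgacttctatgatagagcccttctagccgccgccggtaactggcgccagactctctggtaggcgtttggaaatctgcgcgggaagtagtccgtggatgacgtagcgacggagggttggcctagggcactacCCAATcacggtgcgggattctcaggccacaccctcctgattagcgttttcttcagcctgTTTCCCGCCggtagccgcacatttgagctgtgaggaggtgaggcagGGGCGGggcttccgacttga
Chek1 (minus strand, chr9:36726609-36726908): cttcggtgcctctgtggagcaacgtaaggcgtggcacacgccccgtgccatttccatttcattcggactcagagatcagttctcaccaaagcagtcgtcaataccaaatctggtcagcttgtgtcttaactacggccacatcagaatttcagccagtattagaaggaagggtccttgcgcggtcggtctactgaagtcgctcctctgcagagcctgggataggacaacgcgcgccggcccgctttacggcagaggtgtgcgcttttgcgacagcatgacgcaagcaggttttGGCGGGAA

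The *Brip1* window held 3 CCAAT boxes, all reversed (ATTGG), which start 99, 67 and 34 bases before the start site, and 3 GC boxes. The *Atr* window held 2 GC boxes and no E2F word, and the *Mdc1* window held 2 overlapping E2F words that start 16 and 15 bases before the start site. The *Chek1* window held a single E2F word, which starts 43 bases after the RefSeq start site. This whole window lies inside the gene as annotated by GENCODE vM21, whose 5′ end is at chr9:36727065. A promoter window was found for 33 of the 41 genes, and 11 of them (33.3%) held an E2F word, against 8.12% of the 10637 tested genes with a window and 3.89% of all 32851 promoters. It was in 3 of the 10 called genes with a window (*Chek1*, *Mdc1* and *Topbp1*) and in 8 of the 23 others. The CCAAT box was in 60.6% of the 33 windows (43.6% of tested genes) and the GC box in 69.7% (67.0%). The STRA8 word was in none of the 10 called genes and in 3 others, *Atrip*, *Fancf* and *Rad51b* (9.09% of the 33 windows, 11.1% of tested genes). These matches describe letters and were not tested as binding sites.

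In the preleptotene-enriched testes, 13 of the 41 genes (31.7%) were higher in wild type than in the null at an adjusted p under 0.05, against 7.77% of all 13630 tested genes (quasi-likelihood test of edgeR, with p adjusted by Benjamini-Hochberg over the tested genes, as for every edgeR adjusted p here). No gene of the list was called lower by edgeR, against 3.33% of tested genes, and 1 was by DESeq2. At an unadjusted p under 0.05 there were 20 higher and 3 lower, against 17.4% and 12.9% of tested genes. The log2 fold change of wild type over null was positive for 34 genes and negative for 7, with a median of 0.23 against -0.0065 over all tested genes. The 4 wild-type and 3 null libraries did not overlap in CPM for 19 genes that were higher and for *Rad54l*, which was lower, against 15.4% and 10.8% of tested genes. The 13 called genes were 1.38-fold (*Mus81*) to 1.97-fold (*Brip1*) higher in wild type.

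**Figure D1:**
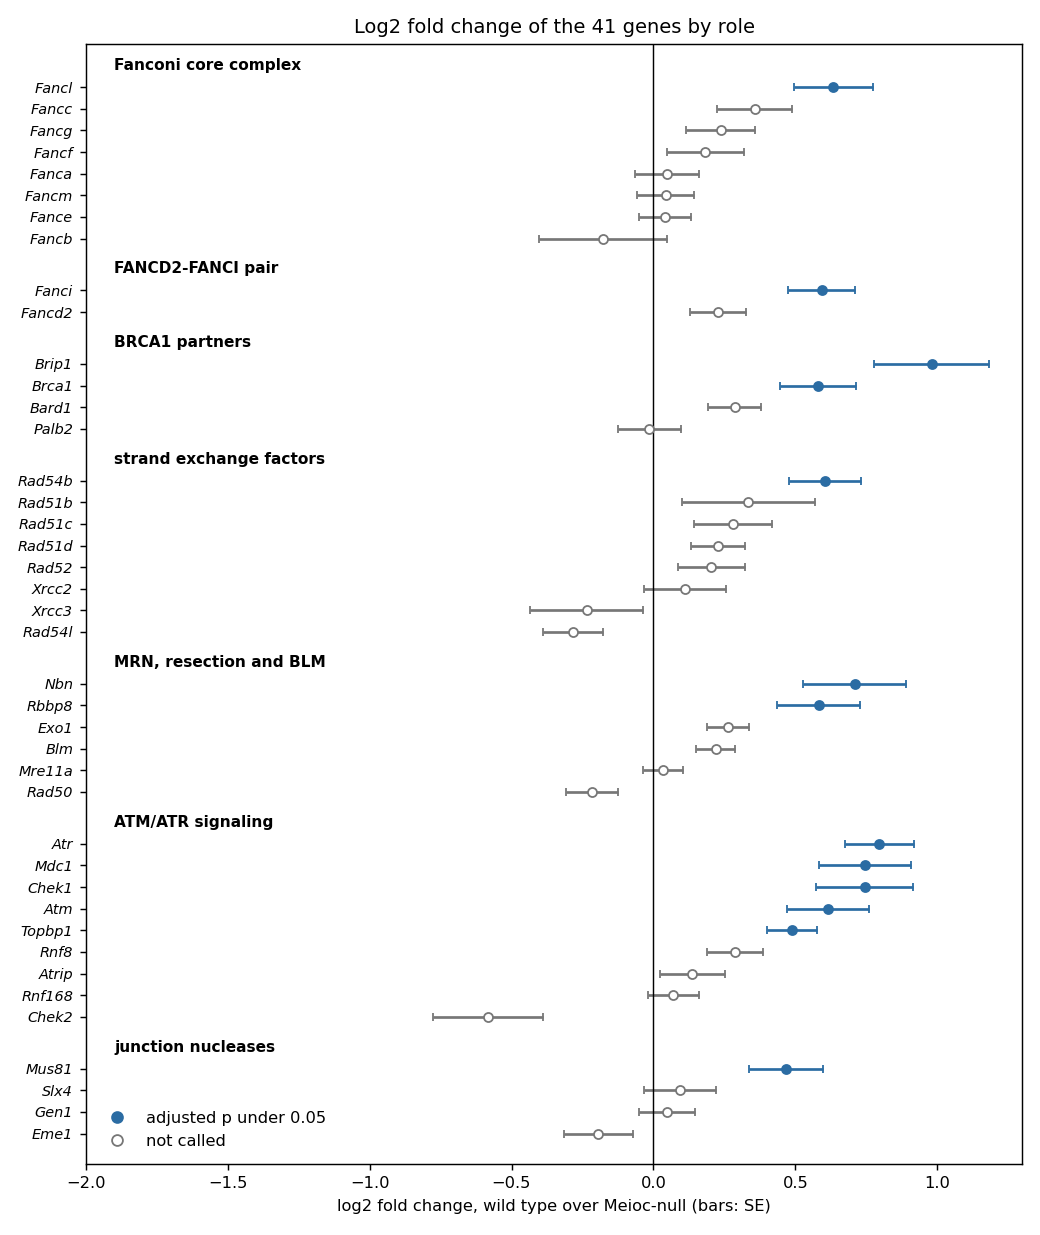
Log2 fold change of wild type over Meioc-null (x axis) for each of the 41 genes, grouped by role, with bars for the SE. Filled points are the 13 genes called at an edgeR adjusted p under 0.05, all to the right of 0; open points are the other 28, and *Chek2* lies farthest to the left at -0.58.

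ATM and ATR signaling held 5 called genes of 9 and had the highest median log2 fold change of the 7 groups (0.49). The BRCA1 partners held 2 of 4 (median 0.43), the *Fancd2* and *Fanci* pair 1 of 2 (0.41), the resection group 2 of 6 (0.24), and the strand exchange factors 1 of 8 (0.22). The core complex held 1 of 8 (median 0.11) and the junction nucleases 1 of 4 (0.070). These counts describe small groups, and the differences between groups were not tested.

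The signaling genes begin with the kinases at the head of the pathway. *Atr* (GENCODE vM21 on GRCm38, chr9:95857597-95951781), the kinase that responds to single-stranded DNA, was counted at 480.5, 621, 677 and 697 CPM in wild-type replicates 1 to 4 and at 377, 346 and 347 CPM in null replicates 1 to 3. All wild-type libraries lay above all null libraries, and the log2 fold change was 0.80 ± 0.12 (SE; edgeR adjusted p = 0.0104). Its adjusted p was the smallest of the list, and the call held in 6 of 7 fits with a library left out. *Atm*, the kinase that responds to double-strand breaks, was counted at 348, 515, 524 and 547 CPM in wild type and at 313, 335 and 299 CPM in the null. Its groups did not overlap, but wild-type replicate 1 was at 348 CPM and the highest null library at 335 CPM. The log2 fold change of *Atm* was 0.62 ± 0.14 (SE; edgeR adjusted p = 0.0270). Both genes lie on chromosome 9 of GRCm38, as do *Topbp1*, *Chek1*, *Atrip* and *Mre11a*.

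Downstream of these kinases, the checkpoint kinases had fold changes of opposite sign, and of the pair *Chek1* alone was called. *Chek1*, which ATR activates at replication forks, was counted at 56.6, 93.02, 75.6 and 80.2 CPM in wild type and at 51.3, 36.4 and 49.01 CPM in the null (log2 fold change 0.74 ± 0.17 SE; edgeR adjusted p = 0.0259). The groups did not overlap, with wild-type replicate 1 the lowest of its group. *Chek2*, which ATM activates at breaks, was counted at 15.2, 10.6, 8.11 and 10.3 CPM in wild type and at 14.3, 18.3 and 16.8 CPM in the null. These ranges overlapped because wild-type replicate 1 was above null replicate 1, and the log2 fold change of -0.58 ± 0.19 (SE) did not pass the test (edgeR adjusted p = 0.0805). Without wild-type replicate 1 it was called lower in wild type (-0.77, edgeR adjusted p = 0.0134), and DESeq2 called it with all libraries (adjusted p = 0.0344). In the other 6 fits with a library left out *Chek2* was not called, with an edgeR adjusted p of up to 0.203.

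Among the adaptors of the pathway, *Mdc1* and *Topbp1* were called. *Mdc1*, a scaffold that binds phosphorylated H2AX beside breaks, was counted at 133, 196, 217 and 189 CPM in wild type and at 102, 128 and 98.9 CPM in the null (log2 fold change 0.75 ± 0.16 SE; edgeR adjusted p = 0.0227). The lowest wild-type and the highest null library lay close together, at 133 and 128 CPM. *Topbp1*, which activates ATR, was counted at 299.9, 366, 369 and 358 CPM in wild type and at 258, 242 and 245 CPM in the null (log2 fold change 0.49 ± 0.088 SE; edgeR adjusted p = 0.0157), with a clear gap between the groups. *Atrip*, the partner that carries ATR to DNA, overlapped between groups, at 18.7 to 23.7 CPM in wild type against 17.5 to 20.5 CPM in the null (log2 fold change 0.14, edgeR adjusted p = 0.442). The ubiquitin ligase genes *Rnf8* and *Rnf168*, which act after MDC1, were not called: *Rnf8* did not overlap between groups, at 23.5 to 26.6 CPM in wild type against 18.98 to 21.7 CPM in the null (log2 fold change 0.29, edgeR adjusted p = 0.0868), whereas *Rnf168* overlapped (0.070, edgeR adjusted p = 0.623).

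**Figure D2:**
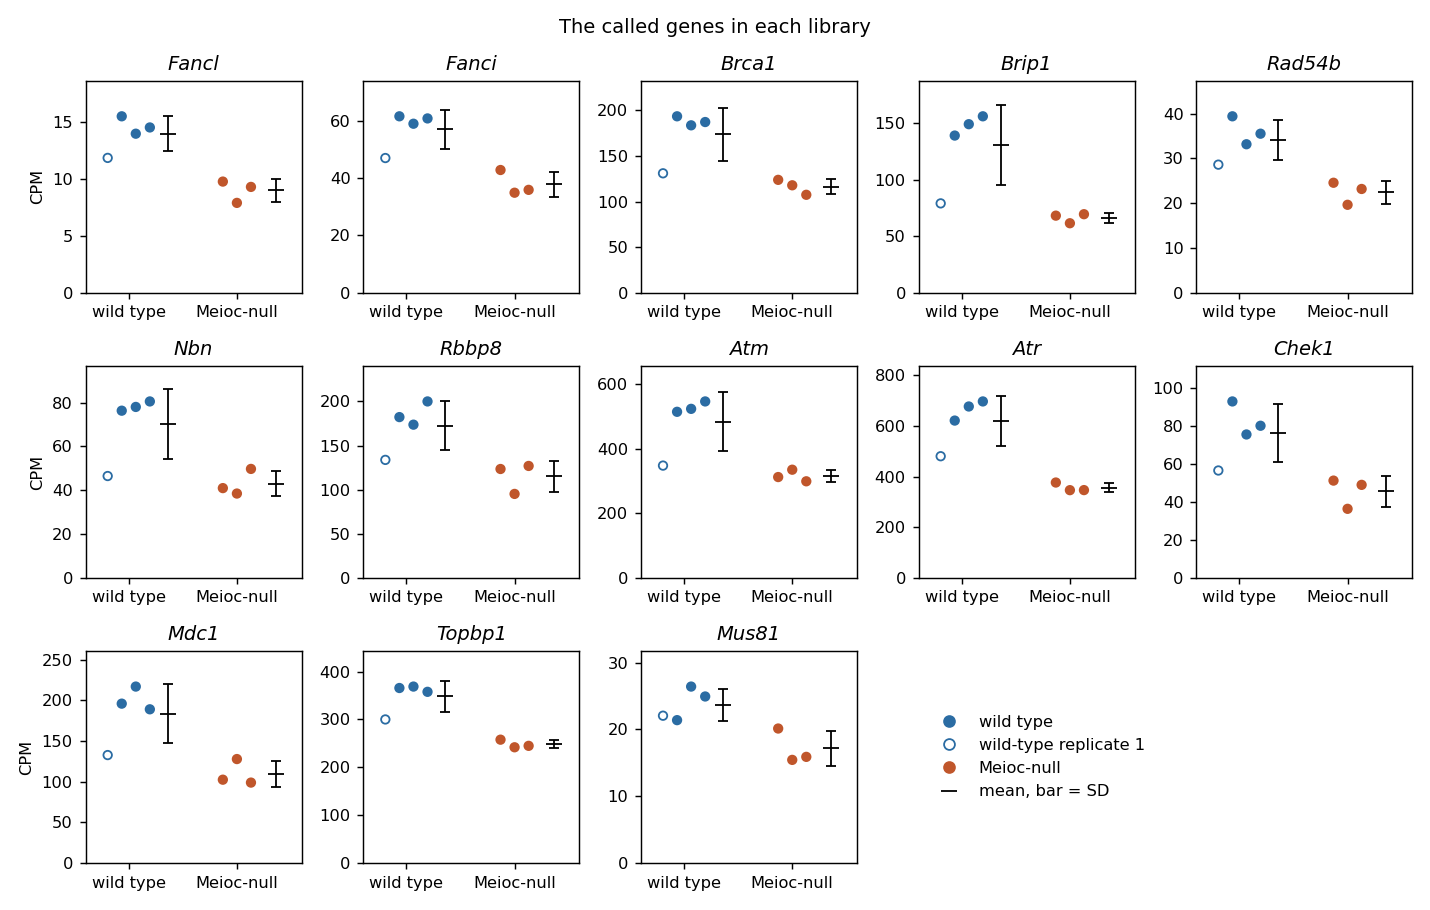
CPM (y axis, from 0) of the 13 called genes in each library, wild type in blue and Meioc-null in orange, with the mean and SD of each group beside the points. The open point is wild-type replicate 1, which lies below the other wild-type libraries in every panel but *Mus81*; in the *Nbn* panel it lies below the highest null library.

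*Brip1* had the largest fold change of the list. It encodes the helicase FANCJ, which binds BRCA1, and was counted at 79.1, 139, 149 and 156 CPM in wild-type replicates 1 to 4 and at 68.2, 61.5 and 69.5 CPM in the null (chr11:86058138-86201193; log2 fold change 0.98 ± 0.20 SE, edgeR adjusted p = 0.0202). Wild-type replicates 2 to 4 lay far above the null libraries, while replicate 1 was near them. *Brca1*, which encodes a ubiquitin ligase that works in end resection and strand exchange, was counted at 131, 194, 184 and 187 CPM in wild type and at 124, 118 and 107 CPM in the null (log2 fold change 0.58 ± 0.13 SE; edgeR adjusted p = 0.0255). The groups did not overlap. *Bard1*, the obligate partner of BRCA1, did not overlap either, at 35.3 to 41.9 CPM in wild type against 29.97 to 33.5 CPM in the null, but was not called (0.29, edgeR adjusted p = 0.0769). *Palb2*, which links BRCA1 to BRCA2, had a log2 fold change of -0.014 ± 0.11 (SE; edgeR adjusted p = 0.946), with overlapping groups.

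Of the 8 core complex genes, the one for the catalytic subunit was called. *Fancl*, the ubiquitin ligase that modifies FANCD2, was counted at 11.9, 15.5, 13.98 and 14.5 CPM in wild type and at 9.77, 7.90 and 9.30 CPM in the null (log2 fold change 0.63 ± 0.14 SE; edgeR adjusted p = 0.0228). The groups did not overlap. *Fancc* was the next largest (0.36, edgeR adjusted p = 0.105) and its groups did not overlap, at 19.5 to 25.02 CPM in wild type against 14.96 to 19.1 CPM in the null. The log2 fold changes were 0.24 for *Fancg*, 0.18 for *Fancf*, 0.047 for *Fanca*, 0.043 for *Fancm*, the translocase that anchors the complex on DNA, and 0.041 for *Fance*, the subunit that binds FANCD2. *Fancb*, which forms a module with FANCL, was the lowest expressed gene of the list, at 1.74 to 2.57 CPM in wild type against 2.14 to 2.88 CPM in the null (log2 fold change -0.18, edgeR adjusted p = 0.627). Of the substrates, *Fanci* was called: it was counted at 46.9, 61.5, 58.9 and 60.8 CPM in wild type and at 42.8, 34.9 and 35.8 CPM in the null (log2 fold change 0.59 ± 0.12 SE; edgeR adjusted p = 0.0180). *Fancd2* overlapped between groups because wild-type replicate 1 was at 54.9 CPM, below null replicate 1 at 58.95 CPM, and was not called (0.23, edgeR adjusted p = 0.158).

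Of the resection group, *Nbn* and *Rbbp8* were called. *Nbn*, the subunit of the MRE11-RAD50-NBS1 complex that calls ATM, was counted at 46.5, 76.3, 78.03 and 80.5 CPM in wild type and at 40.96, 38.5 and 49.7 CPM in the null (log2 fold change 0.71 ± 0.18 SE; edgeR adjusted p = 0.0375). It is the single called gene whose groups overlapped, since wild-type replicate 1 lay below null replicate 3. The other subunits of the complex did not pass the test: *Mre11a* had a mean of 61.9 ± 1.55 CPM in wild type (SD, n = 4) and of 60.5 ± 2.82 CPM in the null (SD, n = 3) (0.033, edgeR adjusted p = 0.782). *Rad50* was at 144, 143, 145 and 144 CPM in wild type and at 144, 184 and 174 CPM in the null, with 2 null libraries above all others (-0.22, edgeR adjusted p = 0.141). *Rbbp8*, which encodes the resection factor CtIP, was counted at 134, 182, 174 and 200.04 CPM in wild type and at 123, 95.1 and 127 CPM in the null, without overlap (log2 fold change 0.58 ± 0.15 SE; edgeR adjusted p = 0.0346). *Exo1*, the nuclease of long resection, and *Blm*, a helicase that also dissolves joint molecules, had no overlap between groups but small differences. *Exo1* lay just outside the threshold at 81.7 to 92.3 CPM in wild type against 70.8 to 73.97 CPM in the null (0.26, edgeR adjusted p = 0.0507), and *Blm* was at 96.9 to 102 CPM in wild type against 82.9 to 85.8 CPM in the null (0.22, edgeR adjusted p = 0.0648); DESeq2 called both higher.

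Among the strand exchange factors, *Rad54b* was called. This DNA translocase of the RAD54 family was counted at 28.6, 39.4, 33.2 and 35.5 CPM in wild type and at 24.6, 19.6 and 23.2 CPM in the null (log2 fold change 0.60 ± 0.13 SE; edgeR adjusted p = 0.0216). Its counts are uncertain in part, because 38.8% of the 31-base words in its transcripts also occur in other genes. The gene that shares the most words with it is *Fsbp*, which lies inside *Rad54b* and was itself at 2.36 to 3.98 CPM. *Rad54l*, the gene for RAD54 itself, was lower in every wild-type library, at 16.99, 17.1, 14.6 and 16.9 CPM against 21.4, 19.6 and 18.9 CPM in the null, but did not pass the test (-0.28 ± 0.11 SE; edgeR adjusted p = 0.108). None of the 5 paralogs, which assist strand invasion, was called by edgeR or DESeq2, and *Rad51d* alone had an unadjusted p under 0.05. Their log2 fold changes were 0.33 for *Rad51b*, 0.28 for *Rad51c*, 0.23 for *Rad51d*, 0.11 for *Xrcc2* and -0.23 for *Xrcc3*, of which *Rad51d* did not overlap between groups. *Rad52*, a strand annealing factor, did not overlap either, at 11.9 to 14.7 CPM in wild type against 11.1 to 11.8 CPM in the null (0.20, edgeR adjusted p = 0.268).

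Of the junction nucleases, *Mus81* was called and was closest to the threshold of the 13. It encodes the catalytic subunit of a nuclease that cuts branched DNA, and was counted at 22.1, 21.4, 26.4 and 24.9 CPM in wild type and at 20.1, 15.4 and 15.9 CPM in the null (log2 fold change 0.47 ± 0.13 SE; edgeR adjusted p = 0.0491). Its counts too are uncertain in part, since 10.998% of its 31-base words are shared with other genes, most of all with the pseudogene *Gm48985*. *Eme1*, the partner subunit of MUS81, overlapped between groups (-0.19, edgeR adjusted p = 0.305), as did *Slx4*, the scaffold of these nucleases (0.092, edgeR adjusted p = 0.653), and *Gen1*, a nuclease that resolves Holliday junctions (0.048, edgeR adjusted p = 0.770).

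Genes of partnered or parallel roles had unlike fold changes in places, and their ratio within each library does not depend on the scaling between libraries. The 18 pairs were chosen after the values of the genes were seen, so no test is given. The log2 ratio of *Chek1* over *Chek2* CPM was 1.90, 3.14, 3.22 and 2.96 in wild-type replicates 1 to 4 and 1.84, 0.99 and 1.54 in null replicates 1 to 3, a difference of 1.35 between the group means. It is the widest difference of the 18, although wild-type replicate 1 lay just above the highest null library. For *Nbn* over *Rad50* the log2 ratios were -1.64, -0.91, -0.89 and -0.84 in wild type and -1.81, -2.26 and -1.80 in the null. For *Rad54b* over *Rad54l* they were 0.75, 1.203, 1.18 and 1.07 in wild type and 0.20, 0.0053 and 0.29 in the null. Here the 2 translocase genes were at nearly equal counts in null replicate 2 and *Rad54b* was well above *Rad54l* in wild type. The log2 ratio of *Fanci* over *Fancd2* was below 0 in all libraries, at -0.22, -0.17, -0.13 and -0.067 in wild type and -0.46, -0.52 and -0.56 in the null, with narrow spread in both groups. *Atr* over *Atrip* was 4.53, 4.85, 5.18 and 4.88 in wild type and 4.20, 4.11 and 4.31 in the null, and *Mus81* over *Eme1* was 0.72, 0.81, 1.31 and 1.09 and 0.63, 0.21 and 0.11. The groups did not overlap for these pairs, nor for *Fancl* over *Fancb*, *Brca1* over *Palb2*, *Rad51c* over *Xrcc3* and *Mre11a* over *Rad50*, where the first gene was relatively higher in wild type, nor for *Rnf168* over *Rnf8*, where it was relatively lower. The 7 other pairs overlapped, *Brca1* over *Bard1* and *Brip1* over *Brca1* among them. CPM ratios compare libraries and say nothing of which gene of a pair has more transcripts.

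**Figure D3:**
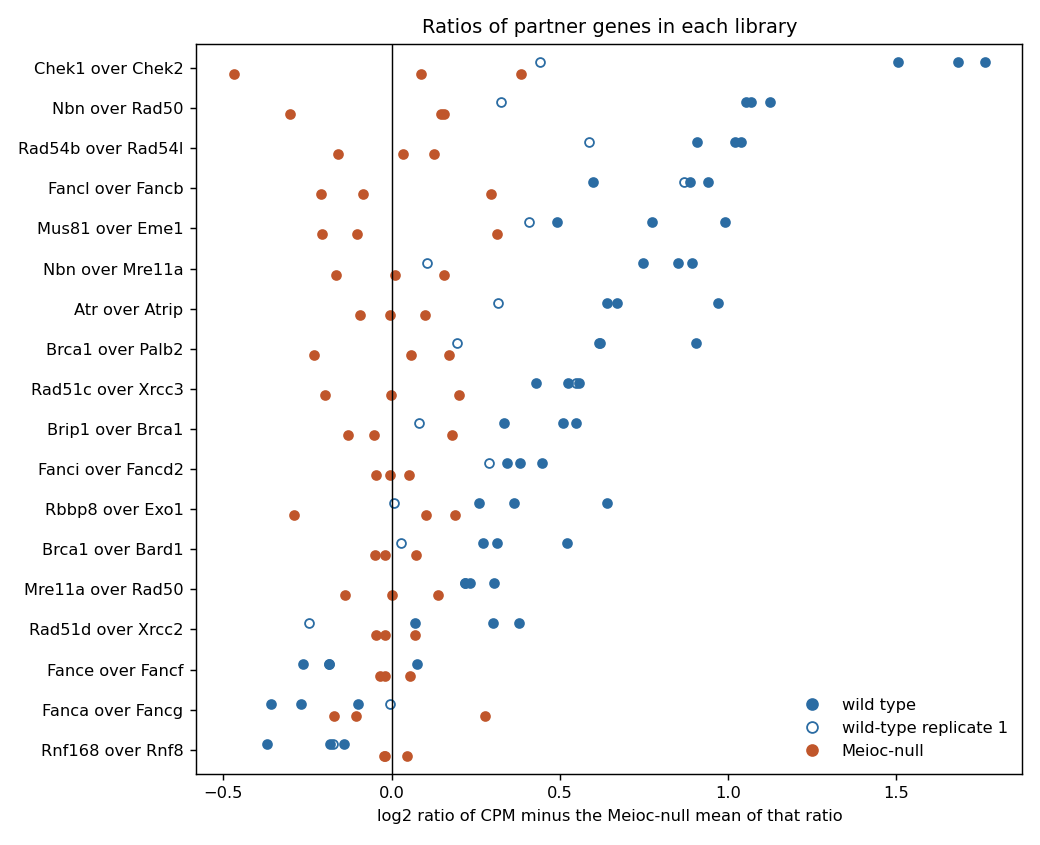
Log2 ratio of the CPM of 2 partner genes in each library, minus the Meioc-null mean of that ratio (x axis), for 18 pairs. Wild-type libraries (blue, replicate 1 open) lie to the right of the null libraries (orange) for *Chek1* over *Chek2*, *Nbn* over *Rad50* and *Rad54b* over *Rad54l*, and to the left for *Rnf168* over *Rnf8*.

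Per transcript length, the genes with the highest levels belonged to signaling and to resection. Mean TPM over the 7 libraries ran from 1.79 for *Fancb* to 129 for *Atr*, with a median of 14.95 against 18.5 for all tested genes. There were 6 genes at 50 TPM or more: *Atr*, *Topbp1* (106 TPM), *Rbbp8* (91.97), *Atm* (78.4), *Rad50* (65.8) and *Nbn* (58.5), and 5 of these 6 were called, *Rad50* being the exception. Neighbours at the top of this order overlapped between libraries, *Rbbp8* at 72.95 to 115 TPM and *Atm* at 60.7 to 95.9 TPM. *Brca1* was at 40.2 TPM and its partner *Bard1* at 9.40 TPM, and *Chek1* at 35.7 against 10.8 TPM for *Chek2*. There were 13 genes under 10 TPM, among them 4 core complex genes (*Fanca*, *Fancb*, *Fancf* and *Fancg*), and none of the 13 was called. The share of all tested genes called at these levels was not counted, so these counts of calls have no background beside them.

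For most of these genes a single annotated transcript took nearly all counts. Of the 41 genes, 27 had 1 transcript with at least 10% of the counts of the gene and 14 had 2 or more, of which *Fancl* is the one called. The 2 *Fancl* transcripts (2724 and 1187 bases) both had higher CPM in all wild-type than in all null libraries. Unlike the gene values, these transcript CPM were scaled to library depth alone, without TMM. The long transcript was at 7.18 to 9.91 CPM in wild type and 5.65 to 6.45 CPM in the null, and the short one at 4.82 to 5.35 and 2.47 to 3.84 CPM. The share of the long transcript overlapped between groups, at 59.8% to 66.3% and 62.0% to 69.6%. Of the 29 transcripts of these 14 genes, the share of 1 did not overlap: the main *Fancc* transcript took 46.6% to 60.8% of the counts in wild type and 41.1% to 44.7% in the null. How often this occurs among transcripts of all tested genes was not counted, so this 1 has no background beside it. Shares of transcripts that overlap are estimates of kallisto from short reads. Words shared with other genes make 2 uncalled genes uncertain in part, *Rnf8* (31.3% of its 31-base words) and *Atrip* (14.1%). The gene sharing the most words was the read-through gene *Gm28043* for *Rnf8* and *Trex1* for *Atrip*.

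The other genes of these pathways gave a wider view, from a list of 87 genes of repair and damage signaling that were all tested. In wild type 13 of them (14.9%) were higher and 0 lower, against 7.77% and 3.33% of all tested genes. At an unadjusted p under 0.05 there were 26 higher and 8 lower, against 17.4% and 12.9% of tested genes. DESeq2 called 4 lower, against 6.42% of tested genes. Their median log2 fold change was 0.069. Among 24 recombination partners, 5 were called higher, among them *Rad51ap1* (1.00, edgeR adjusted p = 0.0129), which stimulates strand exchange, and *Fignl1* (0.66, edgeR adjusted p = 0.0160), a regulator of recombination. *Fignl1* was counted at 63.2, 69.3, 66.003 and 67.9 CPM in wild type and at 48.1, 33.2 and 44.8 CPM in the null. Among 14 Fanconi partners, 2 were called: *Ube2t* (1.09, edgeR adjusted p = 0.0172), the conjugating enzyme that works with FANCL, and *Cenps* (0.85, edgeR adjusted p = 0.0242), a partner of FANCM. *Ube2t* was counted at 23.2, 36.5, 41.9 and 46.1 CPM in wild type and at 18.7, 16.1 and 17.4 CPM in the null.

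Among 19 damage signaling partners, 4 were called, led by *H2afx* (2.66, edgeR adjusted p = 0.0167), the histone whose phosphorylated form binds MDC1, then *Tipin* (0.75, edgeR adjusted p = 0.0168), a fork protection factor, and *Clspn* (0.69, edgeR adjusted p = 0.0444), the mediator of CHK1 activation. *H2afx* was counted at 277, 853, 1308 and 1229 CPM in wild type and at 217, 113 and 104 CPM in the null, so wild-type replicate 1 was close to null replicate 1 and far below the rest of its group. The median of this list was -0.0055, with 9 positive and 10 negative members. Of 10 end joining genes 1 was called, *Nhej1* (0.93, edgeR adjusted p = 0.0239), and of 20 excision repair genes 1, *Ddb2* (0.80, edgeR adjusted p = 0.0213), with medians of 0.0090 and -0.0094.

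Genes of S phase moved with the repair genes. Of 14 S phase genes 7 were higher in wild type and none lower (median log2 fold change 0.42), with a summed level of 1608 to 2309.6 CPM in wild type and 1129.7 to 1489 CPM in the null and no gene at 0. Of 6 general germ cell markers 3 were higher, *Dazl*, *Mael* and *Tex14* (median of the list 0.36, summed level 1902 to 2080.3 CPM against 1409 to 1533 CPM). *Dazl* (0.58, edgeR adjusted p = 0.0112) made up much of the summed level, at a mean of 1105 CPM in wild type and 738 CPM in the null. *Tdrd1* alone went the other way and was not called (-0.24, edgeR adjusted p = 0.148). Of 7 markers of undifferentiated spermatogonia 3 were lower in wild type, *Zbtb16*, *Nanos3* and *Lin28a*, and the summed level was 171 to 201 CPM in wild type and 249 to 368 CPM in the null; *Nanos2* was too low to be tested. Of the somatic markers, 0 of 7 for Sertoli cells, 0 of 5 for Leydig cells, 0 of 4 for endothelial cells and 0 of 5 for macrophages were called by edgeR, with 1 gene of each of these 4 lists at an unadjusted p under 0.05, and 1 of 4 for peritubular myoid cells (*Des*) was lower in wild type. The summed Sertoli level was 4365 to 4566 CPM in wild type and 4544 to 5292 CPM in the null. The 6 markers of later germ cells stayed at or under 0.435 CPM in all libraries, and none was tested. The part of S phase and of the germ cell share in the fold changes of the repair genes was not tested.

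To describe how closely the called genes went along with these lists, the log2 CPM of each was set against the mean log2 CPM of the S phase genes in the same library, a comparison chosen after the values were seen and given without a test. On that scale the wild-type and null libraries overlapped for all 13 called genes, and the difference between group means ran from -0.10 (*Mus81*) to 0.37 (*Brip1*), with a median of 0.034. Set against the 6 germ cell markers instead, the difference was positive for all 13, from 0.17 (*Mus81*) to 0.63 (*Brip1*) with a median of 0.30, and the groups again overlapped for all 13. Without wild-type replicate 1, the groups did not overlap for 12 of 13 genes against the germ cell markers (median difference 0.41), all but *Mus81*. Against the S phase genes they overlapped for 12 of the 13, *Brip1* being the exception (median 0.053). The 13 genes were called higher in these same libraries, and wild-type replicate 1 was the lowest wild-type library for 12 of them. The sign of their differences and their separation without that library were thus set in part by that choice, and other genes were not compared on these scales. In the mean levels by library, wild-type replicate 1 lay below the other wild-type libraries for the BRCA1 partners (-0.11 against 0.24 to 0.34), for ATM and ATR signaling (-0.00028 against 0.16 to 0.24) and for S phase (-0.0026 against 0.28 to 0.38), but not for the germ cell markers (0.17 against 0.037 to 0.19). Over the 13 called genes, the position of wild-type replicate 1 between the null mean (0%) and the mean of the other wild-type libraries (100%) ran from 13.6% (*Nbn*) to 73.9% (*Mus81*), with a median of 37.5%.

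**Figure D4:**
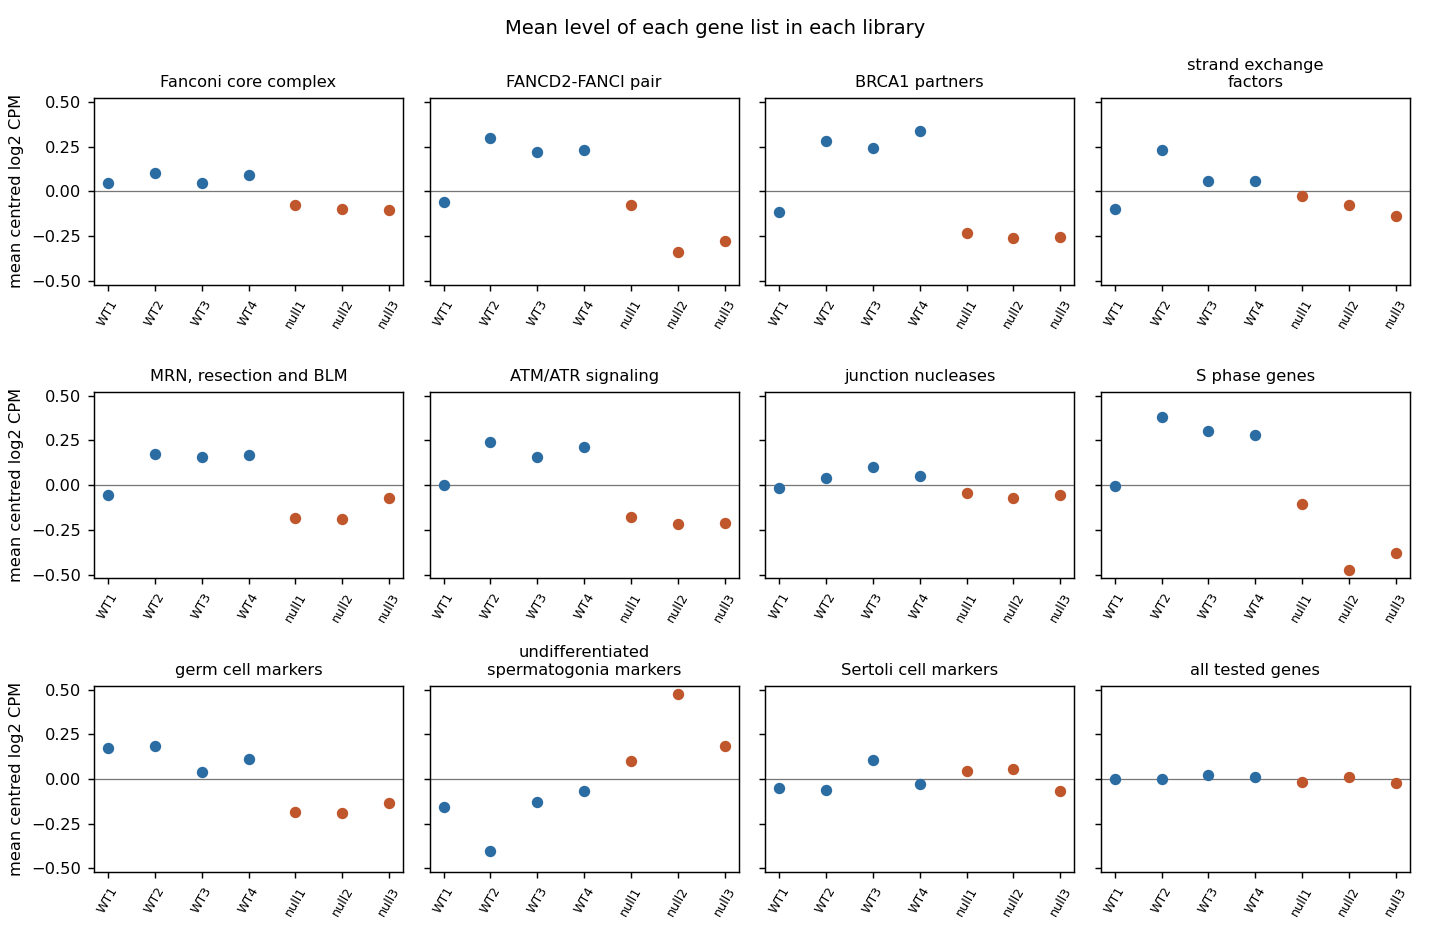
Mean centred log2 CPM (y axis) of each gene group in each library (x axis), wild type in blue and Meioc-null in orange, for the 7 repair groups, 4 marker lists and all tested genes. Wild-type replicate 1 (WT1) lies below the other wild-type libraries for the repair groups other than the core complex and for S phase; all tested genes lie near 0 in every library.

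The number of calls depended on single libraries. Without wild-type replicate 1, 15 of the 41 genes were higher (10.6% of tested genes) and 1 lower (5.37%), the additions being *Bard1*, *Exo1* and *Chek2*. Without null replicate 1, 12 were higher (9.35%) and 1, *Rad50*, was lower (6.14%). Without wild-type replicate 2, 3 or 4 the count was 1, 1 and 2 (1.86%, 1.74% and 2.67% of tested genes higher, 0.308%, 0.279% and 0.836% lower), and without null replicate 2 or 3 it was 3 and 0 (2.17% and 0.829% higher, 0.418% and 0.132% lower), with 0 lower of the 41 in any of these 5. Without null replicate 3, where edgeR called 0, 16 of the 41 genes were higher and 2 lower at an unadjusted p under 0.05. The share of all tested genes at that threshold was not counted in this fit, so the 16 and 2 have no background beside them. *Atr* was called in 6 of the 7 fits, *Topbp1* in 4, *Mdc1* in 3, 9 others in 2 and *Nbn* in 1. All 13 kept a positive log2 fold change in all 7 fits, the lowest being 0.40 for *Mus81*, and the median of the 41 genes stayed between 0.20 and 0.27.

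The number of calls in each direction also depended on the scaling. DESeq2 called 15 genes higher (10.7% of tested genes) and 1 lower (6.42%), and edgeR with library size alone called 12 (5.94%) and 0 (6.63%). The counts were also 12 and 0 with RLE scaling (7.28% and 3.59% of tested genes), without the filter on low values (4.92% and 2.23%) and with filterByExpr in its place (6.5% and 3.22%). On the deposited TPM, as log2(TPM + 1) in limma, 4 were higher (*Fancl*, *Brip1*, *Atr* and *Chek1*, 3.23% of tested genes) and 3 lower (*Chek2*, *Rad50* and *Rad54l*, 15.3%); with a pseudocount of 0.1 the counts were again 4 and 3 (3.25% and 15.1%). On that scale the median of all tested genes was shifted to -0.23 and the median of the 41 genes was -0.0020, so the list lay 0.22 above all genes on TPM and 0.23 above them on edgeR's scale. All 13 called genes remained positive on TPM. Against a fold change of at least 1.2, *Atr* alone was called (1.69% of tested genes higher, 0.191% lower).

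**Figure D5:**
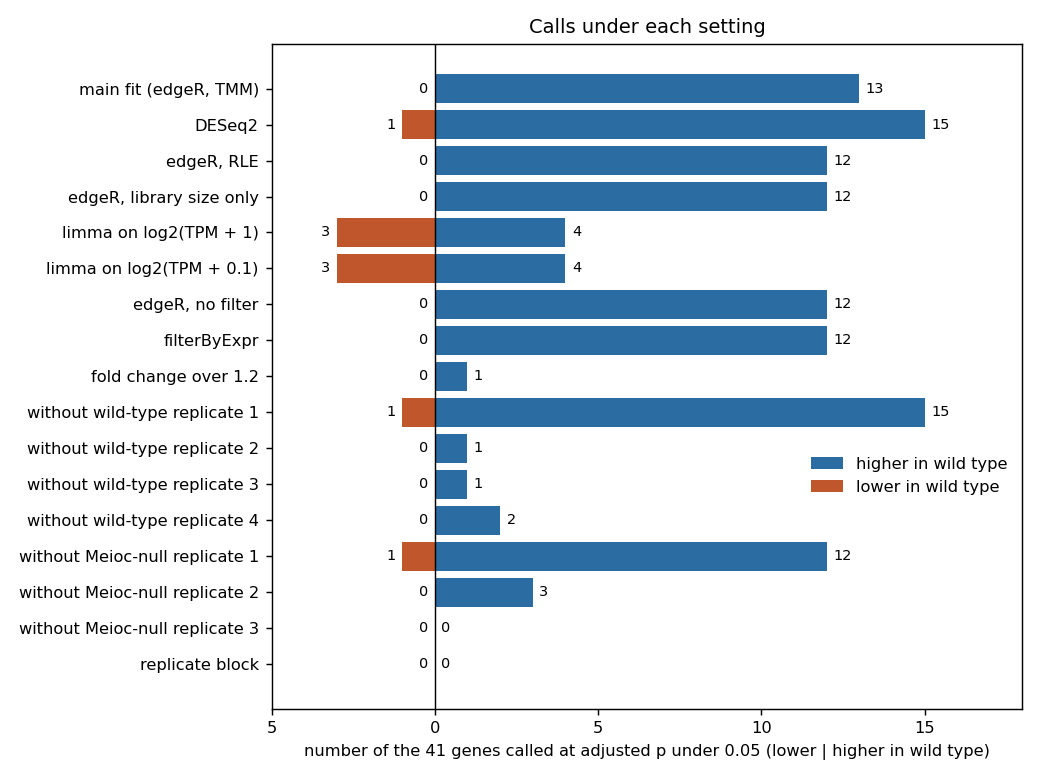
Number of the 41 genes called higher (blue, to the right) or lower (orange, to the left) in wild type at an adjusted p under 0.05, for the main fit and each alternative (y axis). The count of higher calls is 12 to 15 under the count-based scalings and filters and between 0 and 3 when wild-type replicate 2, 3 or 4 or null replicate 2 or 3 is left out.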

How the data were processed

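Bulk RNA-seq tables of 4 wild-type and 3 *Meioc*-null samples were used, placed in groups by their labelled genotype. Per the labels and the methods, the authors trimmed stranded, ribosome-depleted reads with cutadapt 1.8, quantified GENCODE Basic vM15 transcripts with kallisto 0.44.0 (bias correction, strand), kept the transcripts of protein-coding genes and deposited for each an estimated count and a TPM. Spike-ins were added but not used.

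Transcripts were assigned to genes of GENCODE vM21 (GRCm38) by identifier and summed; 119 of 43139 were unmatched and held at most 0.282% of the counts of a library. Counts were rounded and tested with edgeR 4.0.16 in R 4.3.3 (quasi-likelihood test, TMM, no covariates, Benjamini-Hochberg over 13630 genes with TPM of at least 1 in 3 of 7 libraries); the study used DESeq2 for this comparison, here version 1.42.0 as an alternative, and limma 3.58.1 served on log2 TPM. The SE was the fold change divided by the root of F. P-values measure the spread between pups. On simulated counts for this comparison with 200 genes changed 2-fold among 13630, edgeR recovered 165 with 11 false calls. DESeq2 found 172 of these 200, and 35 further genes that it called were false. In counts simulated without any difference between groups, edgeR called 0 genes and DESeq2 called 2. The called genes of the list were 1.38-fold to 1.97-fold higher, and recovery of changes smaller than 2-fold was not tested. Estimated counts carry no molecular identifiers, so depth covers counting error only.

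The genes, lists and named examples were chosen with earlier results of these data known. Called genes were named with all values, others of the 41 with their fold change or in counts, and of the other repair lists the 3 largest called fold changes in each direction, apart from 1 gene that is not reported here; promoters were shown for the 4 largest called changes. Promoter sequences are from RefSeq (GRCm38.p6). Words of 31 bases shared between genes were counted in vM21 transcripts.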

Additional observations from a re-analysis of the deposited data

Results flagged for a closer look

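In wild type (n = 4), 6 of the 41 genes had a library set far from the rest of its group by Dixon's criterion (its gap to the nearest library, as a share of the range of the group, was past its critical value); chance gives this in about 1 in 20 groups. In 4 of the 6 the library was wild-type replicate 1, and all 4 genes were called: *Brca1* at 131.0 CPM, *Nbn* at 46.5 CPM, *Atm* at 348 CPM and *Topbp1* at 299.9 CPM, each the lowest wild-type value. The others were *Rad54l*, lowest in wild-type replicate 3 at 14.6 CPM, and *Mre11a*, highest in wild-type replicate 2 at 64.2 CPM, in a group whose values otherwise lay between 61.0 and 61.4 CPM. The share of all tested genes flagged by this rule was not counted, so the 6 have no such background beside them. The cause of these values was not tested.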

How the results depend on the processing

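The 13 calls higher in wild type stayed 12 to 15 under DESeq2, RLE, library size alone, no filter and filterByExpr, and no alternative reversed any of the 13; *Mus81* lost its call under all of these but DESeq2. The count fell to 4 on log2(TPM + 1) and on log2(TPM + 0.1), and to 1 against a fold change of 1.2. Leaving out each library in turn gave 0 to 15 higher and 0 to 1 lower. Lower calls were 1 with DESeq2 and 3 on either TPM scale. Of the 87 other genes, higher calls were 4 against a fold change of 1.2 (1.69% of tested genes). With a library left out they were 0 to 17 (0.829% to 10.6% of tested genes). Lower calls were 4 with DESeq2 (6.42% of tested genes), 2 with library size alone (6.63%) and 1 with filterByExpr (3.22%). They were 7 on either TPM scale (15.3% and 15.1%) and 0 to 3 with a library left out (0.132% to 6.14%).

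The labels do not state that the replicate numbers pair the samples. The deviations of same-numbered libraries from their group means correlated at -0.044, -0.097 and -0.21. With groups of 4 and 3 these values cannot exclude a pairing. With the replicate block, 94 genes were called higher and 15 lower over all tested genes (0.69% and 0.11%), against 1059 and 454 without it. In either direction edgeR called 0 of the 41 and 0 of the 87 genes. At an unadjusted edgeR p under 0.05, 16 and 19 of them were higher and 1 and 3 lower. The share of all tested genes at that threshold was not counted with the block.

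Medians moved with the scale, and the median of all genes moved with them (-0.084 with library size alone, -0.23 on log2(TPM + 1), -0.25 on log2(TPM + 0.1)). The median of the 41 genes was 0.15 with library size alone, -0.0020 on log2(TPM + 1) and -0.0026 on log2(TPM + 0.1); those of the core complex were 0.038, -0.12 and -0.13, and those of the resection group 0.16, -0.011 and -0.011. On the 2 TPM scales the medians were 0.15 and 0.15 for the *Fancd2* and *Fanci* pair, 0.17 and 0.18 for the BRCA1 partners, -0.027 and -0.031 for the strand exchange factors, 0.23 and 0.24 for ATM and ATR signaling, and -0.16 and -0.17 for the junction nucleases.

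Some genes that edgeR did not call changed sign. With library size alone the log2 fold changes were -0.029 for *Fanca*, -0.037 for *Fance*, -0.032 for *Fancm*, -0.044 for *Mre11a*, -0.0066 for *Rnf168* and -0.031 for *Gen1*. On log2(TPM + 1) they were -0.19 for *Fanca*, -0.20 for *Fance*, -0.056 for *Fancf*, -0.0020 for *Fancg*, -0.19 for *Fancm*, -0.013 for *Fancd2*, -0.19 for *Xrcc2*, -0.054 for *Rad52*, -0.19 for *Mre11a*, -0.035 for *Blm*, -0.0025 for *Atrip*, -0.18 for *Rnf168*, -0.13 for *Slx4* and -0.19 for *Gen1*. On log2(TPM + 0.1) they were -0.21 for *Fanca*, -0.21 for *Fance*, -0.063 for *Fancf*, -0.0026 for *Fancg*, -0.20 for *Fancm*, -0.014 for *Fancd2*, -0.0039 for *Rad51b*, -0.21 for *Xrcc2*, -0.057 for *Rad52*, -0.20 for *Mre11a*, -0.036 for *Blm*, -0.0025 for *Atrip*, -0.19 for *Rnf168*, -0.14 for *Slx4* and -0.20 for *Gen1*. With a library left out, *Fanca* ranged from -0.032 to 0.15, *Fancm* from -0.024 to 0.10, *Palb2* from -0.060 to 0.055, *Xrcc2* from -0.0092 to 0.17, *Mre11a* from -0.0026 to 0.065 and *Gen1* from -0.012 to 0.084. The cause of these shifts was not tested.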
